A study of Mus musculus with 6 samples.

Results

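Complex I of the mitochondrial respiratory chain was followed through the mRNAs of its nuclear genes in 6 mouse hearts, taking every protein-coding gene whose name begins with Nduf. The name gave 48 of the 78409 genes in the table, namely 38 with subunit names, 8 assembly factors (Ndufaf genes) and 2 genes, Ndufa4 and Ndufa4l2, that carry the name but do not belong to the complex. Of these 48 genes, 47 passed a filter of at least 1 CPM (counts per 1000000 counts of the library) in at least 3 of the 6 libraries. The exception, Ndufb11b, had 0 counts in every library, where 3 counts would have been 0.198 to 0.244 CPM. Of the hearts, taken at an age of 11 months, 3 came from mice that lack Ybx1 in cardiomyocytes only (knockout) and 3 from their littermate controls. The product of Ybx1 is a Y-box protein, which binds RNA and DNA. The promoter that drove the deletion and the genotype of the controls beyond that word are not given in the sources used here.

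Complex I takes electrons from NADH, passes them along a flavin and a chain of iron-sulfur clusters to ubiquinone, and pumps protons across the inner mitochondrial membrane. Its L shape has a peripheral arm in the matrix, which carries the redox chemistry, and a membrane arm, which carries the pumps. A set of core subunits conserved from bacteria does the chemistry, partly encoded in the nucleus and partly in mitochondrial DNA, accessory subunits surround the core, and assembly factors join the modules but leave the finished enzyme. Heart muscle depends on the complex because most of its ATP comes from oxidative phosphorylation.

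Each library held 12270796 to 15141525 counts. The levels given below are CPM normalised by TMM factors, a scaling that offsets differences in composition between libraries, and fold changes are knockout relative to control from edgeR's quasi-likelihood test with Benjamini-Hochberg adjustment over 13717 genes. Ybx1 itself was at 849, 810.2 and 895 CPM in control hearts 1 to 3 and 203, 171 and 109.7 CPM in knockout hearts 1 to 3, the order used for all values below, and the groups lay apart as their labels say. Its log2 fold change was -2.40, with an edgeR adjusted p of 0.148. The labels do not say which hearts share a litter, and the p-values measure the spread between these 6 samples. Knockout heart 3 stood apart from the other libraries, with 10.7% of its counts in mitochondrial rRNA, against 20.5% to 26.3% elsewhere, and with 668 deposited CPM of the nuclear RNA Malat1, against 3317 to 7923 CPM. Bulk RNA cannot tell fewer cells of a type from less RNA per cell.

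No complex I gene differed between the groups past an adjusted p of 0.05 in edgeR's test, a rule that called 0% of all 13717 genes. The smallest adjusted p among the 47 tested members was 0.694. At unadjusted p below 0.05 there were 0 members, beside 5.14% of all genes (2.69% higher and 2.45% lower in knockout hearts). Without knockout heart 1, 7 members were below it, 5 of them subunits and all 7 higher in knockout hearts, beside 7.48% of all genes in that direction, and the smallest adjusted p was 0.382. DESeq2 also called 0 members after adjustment, where it called 0.109% of all genes, and gave 1 an unadjusted p below 0.05, beside 5.08% of all genes. Limma-trend had 0 members under either rule, with 4.32% of all genes below the unadjusted threshold at an added 0.5 CPM and 4.4% at an added 2 CPM. EdgeR without a filter on low counts put 3 subunits, Ndufab1, Ndufb4 and Ndufs1, below it, beside 7.48% of 33251 genes, and called 0 members. Of the 37 tested subunits 30 had a log2 fold change above 0, beside 51.1% of all genes, with a median of 0.11 (0.01 over all genes). The values ran from -0.27 for Ndufv1 to 0.64 for Ndufab1. Without knockout heart 3 the count above 0 was 15 of 37, beside 48.6% of all genes, and the median was -0.01. Without control heart 2 the count was 19, beside 50.8% of all genes, and the median 0.01. Without both of these hearts it was 4, beside 52% of all genes, with a median of -0.13. Without knockout heart 1 the count was instead 34, with a median of 0.28 (-0.003 over all genes). Without control heart 3 it was 31, with a median of 0.23 (0.009 over all genes). Without control heart 1 it was 29, and without knockout heart 2 it was 26. Scaling by total counts alone, which moved the median of all genes from 0.01 to 0.17, put 36 subunits above 0, beside 67.1% of all genes.

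The intervals say how large a difference these hearts could hide. For 31 of the 37 subunits the 95% confidence interval of the fold change lay within 2-fold in either direction, beside 63.5% of all genes. The highest upper bound was 1.43, that of Ndufs1, and the lowest lower bound was -0.85, that of Ndufv1, both on the log2 scale. The plot of fold changes gives each interval with the value that remained when knockout heart 3 was left out.

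**Figure D1:**
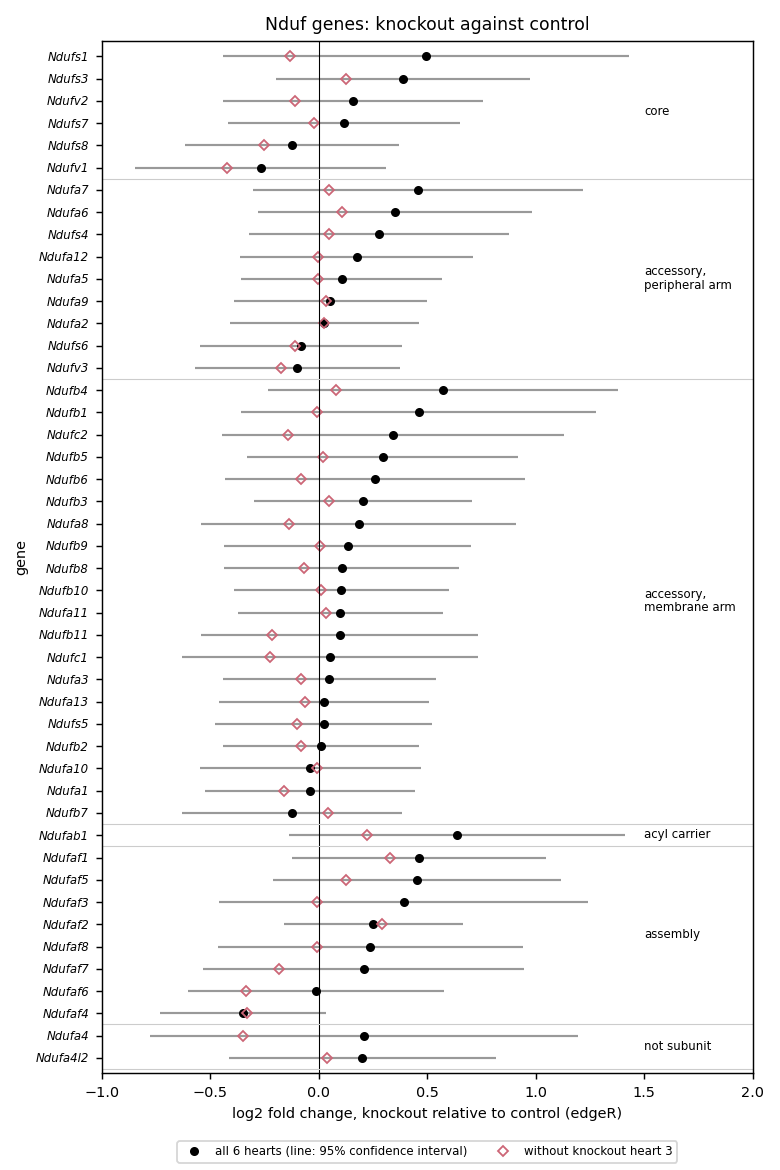
Log2 fold change (horizontal axis) of 46 Nduf genes (vertical axis), grouped by role. Filled points and lines are the edgeR estimates from all 6 hearts with 95% confidence intervals, and open diamonds are the estimates without knockout heart 3. Every interval shown includes 0, and for most subunits the diamond lies to the left of the point.

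Among the 7 nuclear core subunits, 5 lay above and 2 below 0, with a median of 0.16. Without knockout heart 3, 2 of the 7 lay above 0, with a median of -0.11. Ndufv1, which holds the flavin and the site where NADH is oxidised, was at 249, 224 and 256 CPM in the control hearts and 132.5, 229.5 and 243 CPM in the knockout hearts. Knockout heart 1 was the low one, while the other knockout hearts lay within the control range. Its log2 fold change was -0.27 (SE 0.25, edgeR adjusted p = 0.72), or -0.04 without knockout heart 1 and -0.42 without knockout heart 3. Ndufs1, the largest subunit, which carries iron-sulfur clusters of the chain, was at 95.4, 70.6 and 111 CPM in control and 65.45, 103 and 222 CPM in knockout hearts. Knockout heart 3 alone lay above the controls, and knockout heart 1 was the lowest of all. The log2 fold change of Ndufs1 was 0.49 (SE 0.41, edgeR adjusted p = 0.706), and -0.13 without knockout heart 3.

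Ndufv2, which binds an iron-sulfur cluster beside the flavin subunit, was at 235, 225 and 289 CPM in control and 195, 267 and 373 CPM in knockout hearts. Its lowest and highest values were both in the knockout group (log2 fold change 0.16, interval -0.44 to 0.76). Ndufs3 was at 83.1, 60.15 and 88.9 CPM in controls, then 79.2, 89.8 and 135 CPM in knockouts (0.39, interval -0.20 to 0.97). Ndufs7, which carries the last cluster before ubiquinone, was at 159.6, 119 and 175 CPM in controls, then 127, 169.9 and 194 CPM in knockouts (0.115, interval -0.42 to 0.65). In both genes control heart 2 was the lowest of the 6. Ndufs8, with a pair of clusters on the way to ubiquinone, was at 138, 107 and 148 CPM in controls, then 99.05, 121 and 141 CPM in knockouts (-0.12, interval -0.61 to 0.37).

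**Figure D2:**
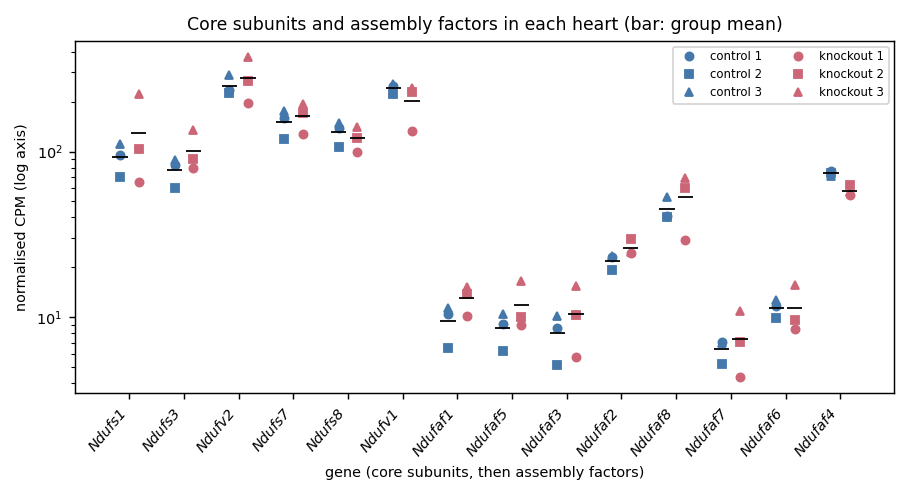
Normalised CPM on a log axis (vertical) of 6 nuclear core subunits and 8 assembly factors (horizontal), with 1 symbol for each control heart (blue) and knockout heart (red) and a bar at each group mean. The groups overlap for all but Ndufaf2 and Ndufaf4, and the red triangle of knockout heart 3 is the highest point for most genes.

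The 9 accessory subunits of the peripheral arm split into 7 above and 2 below 0, with a median of 0.11 and a range from -0.10 (Ndufv3) to 0.46 (Ndufa7). Ndufs6, a zinc-binding subunit, had the highest control mean of all nuclear subunits in reads. It was at 661, 682 and 678 CPM in control and 529.6, 716 and 665 CPM in knockout hearts. The control hearts differed little and the knockout hearts lay on both sides of them (log2 fold change -0.08, interval -0.54 to 0.38). Ndufa5 had the next highest, at 504, 455 and 506 CPM in control and 444, 529 and 603 CPM in knockout hearts (0.11, interval -0.36 to 0.57). Ndufs3 and Ndufs5 had the lowest control means of the nuclear subunits. These are counts of reads not corrected for transcript length and do not rank the mRNAs by copies. Ndufs4, whose loss in mice causes a fatal brain disease, was at 82.4, 75.3 and 100.1 CPM in controls, then 69.1, 108 and 135 CPM in knockouts (0.28, interval -0.32 to 0.88). Ndufs4, Ndufa7 and Ndufv3 are named here after their values were seen.

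Of the 20 accessory subunits of the membrane arm, 17 lay above and 3 below 0, with a median of 0.10. Ndufb4 had the highest fold change of them. It was at 124, 84.2 and 144 CPM in control and 118, 130.1 and 275 CPM in knockout hearts. Only knockout heart 3 lay above the controls, and the log2 fold change of 0.57 (SE 0.35, edgeR adjusted p = 0.694) was 0.08 without it. Ndufb7, a subunit on the intermembrane side held together by disulfide bonds, had the lowest, with 458, 480 and 423 CPM in control and 450.4, 485 and 315 CPM in knockout hearts. Its low value was in knockout heart 3, the heart where most other subunits were highest (log2 fold change -0.12, SE 0.22, edgeR adjusted p = 0.845, and 0.04 without that heart). Ndufs5, of the same disulfide-bonded kind, was at 82.3, 68.6 and 93.85 CPM in controls, then 64.4, 87.7 and 96.6 CPM in knockouts (0.02, interval -0.48 to 0.52), and the groups covered nearly the same range.

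Ndufab1, the mitochondrial acyl carrier protein that sits in both arms and also serves mitochondrial fatty acid synthesis, had the highest fold change of all subunits. It was at 236, 177 and 297 CPM in control hearts and 229, 323 and 552 CPM in knockout hearts. Of the knockout hearts, 2 lay above all controls and 1 lay within them. The log2 fold change was 0.64 (SE 0.34, interval -0.14 to 1.41, edgeR adjusted p = 0.694), and 0.22 without knockout heart 3.

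The 8 assembly factors had lower read counts than the nuclear subunits, with control means from 6.45 CPM (Ndufaf7) to 73.8 CPM (Ndufaf4). Of them 6 lay above and 2 below 0, with a median of 0.24, which was -0.01 without knockout heart 3, where 3 lay above. They include the pair of members whose knockout and control hearts did not overlap in normalised CPM. Over all genes 6.26% had all knockout hearts above the controls and 5.82% all below, together 12.1%. Among the 47 members there was 1 of each kind. Ndufaf4, which works with Ndufaf3 early in building the ubiquinone-binding module, was at 76.2, 74.2 and 71.2 CPM in control hearts and 54.3, 63.0 and 56.65 CPM in knockout hearts. In these normalised values every knockout heart lay below every control. By share of all counts, without TMM factors, the groups overlapped, with knockout heart 3 above control heart 2. They also overlapped relative to the summed counts of nuclear subunits, with knockout heart 1 above control heart 3. The log2 fold change of Ndufaf4 was -0.35 (SE 0.17, interval -0.73 to 0.03, edgeR adjusted p = 0.694). Leaving out any 1 library kept it between -0.43 and -0.31. By total counts alone it was -0.20 and by limma-trend, which also used no TMM factors, -0.19. It was the member that DESeq2 placed below an unadjusted p of 0.05, with an adjusted p of 0.82. Ndufaf2, a paralogue of the subunit Ndufa12 that acts at a late step, was at 23.2, 19.25 and 23.5 CPM in control and 24.3, 29.5 and 24.7 CPM in knockout hearts. The gap between the groups was under 1 CPM (log2 fold change 0.25, interval -0.16 to 0.66, edgeR adjusted p = 0.694). Relative to the summed counts of nuclear subunits the groups of Ndufaf2 overlapped, with knockout heart 3 below all controls.

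The promoters of these 2 genes and of Ndufab1, the subunit with the highest fold change, are shown. They are the members whose groups lay farthest apart or did not overlap in normalised CPM. Each promoter runs from 250 bases before to 50 bases after the RefSeq gene start in GRCm38.p6, 5′ to 3′. Capitals mark matches, on either strand, to CATGCGC (core of the NRF1 site), CCGGAAG (ETS factors, among them GABPA), AAGGTCA (estrogen-related receptors), AAGATGG (YY1) and ATTGG (the inverted CCAAT box, or Y-box).
Ndufaf4 (chr4:24897833-24898132, plus strand): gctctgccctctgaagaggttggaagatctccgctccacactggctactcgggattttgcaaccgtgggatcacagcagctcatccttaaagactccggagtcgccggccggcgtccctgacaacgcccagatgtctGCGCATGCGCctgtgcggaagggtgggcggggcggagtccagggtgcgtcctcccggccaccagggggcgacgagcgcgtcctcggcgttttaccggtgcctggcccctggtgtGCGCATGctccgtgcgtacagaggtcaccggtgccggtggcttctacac
Ndufaf2 (chr13:108158576-108158875, minus strand): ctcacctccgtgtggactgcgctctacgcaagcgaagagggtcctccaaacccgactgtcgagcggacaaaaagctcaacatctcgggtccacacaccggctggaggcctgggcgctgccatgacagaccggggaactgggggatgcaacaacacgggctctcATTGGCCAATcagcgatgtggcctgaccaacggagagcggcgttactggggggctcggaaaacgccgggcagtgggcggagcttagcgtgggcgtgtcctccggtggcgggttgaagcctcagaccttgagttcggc
Ndufab1 (chr7:122101799-122102098, minus strand): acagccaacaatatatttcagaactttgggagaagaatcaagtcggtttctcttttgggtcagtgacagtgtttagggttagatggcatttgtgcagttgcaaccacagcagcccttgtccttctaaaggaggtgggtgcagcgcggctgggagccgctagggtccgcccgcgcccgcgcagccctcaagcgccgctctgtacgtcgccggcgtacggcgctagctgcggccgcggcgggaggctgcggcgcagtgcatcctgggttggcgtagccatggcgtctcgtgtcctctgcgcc
Ndufaf4 held 3 matches to the NRF1 core, 2 of them overlapping on opposite strands, Ndufaf2 held 2 to the Y-box and Ndufab1 none. RefSeq promoters were found for 41 of the 48 members. Of the 35 promoters of 33 subunit genes, 14.3% held the NRF1 core, 11.4% the ETS motif, 8.57% the estrogen-related receptor motif, 20% the YY1 motif and 28.6% the Y-box. Over all 32851 promoters the shares were 3.91%, 8.86%, 4.72%, 6.34% and 37.4%. Of the 7 assembly factor promoters 2 held the NRF1 core, 2 the ETS motif, 0 the estrogen-related receptor motif, 1 the YY1 motif and 4 the Y-box, which is 28.6%, 28.6%, 0%, 14.3% and 57.1%. A match of letters is a description of the sequence and not a bound site.

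For the other 6 assembly factors the groups overlapped in normalised CPM. Ndufaf1, part of the complex that builds the membrane arm, was at 10.4, 6.54 and 11.4 CPM in control hearts, against 10.2, 13.8 and 15.3 CPM in the knockouts (log2 fold change 0.46, interval -0.12 to 1.05). Relative to the summed counts of nuclear subunits all its knockout hearts lay above the controls (edgeR adjusted p = 0.941 on that scale). Ndufaf5, which hydroxylates an arginine of Ndufs7, was at 9.11, 6.26 and 10.5 CPM in controls, then 8.94, 9.98 and 16.6 CPM in knockouts (0.45, interval -0.21 to 1.12). In both genes control heart 2 was the lowest. Ndufaf3 was at 8.63, 5.16 and 10.2 CPM in controls, then 5.76, 10.3 and 15.5 CPM in knockouts (0.39, and -0.01 without knockout heart 3). Ndufaf8, the partner of Ndufaf5, was at 40.7, 40.5 and 53.2 CPM in controls, then 29.1, 59.97 and 69.5 CPM in knockouts (0.24, and -0.01 without knockout heart 3). The knockout hearts held both the lowest and the highest value of Ndufaf8. Ndufaf7, an arginine methyltransferase, was at 7.10, 5.25 and 7.01 CPM in controls, then 4.34, 7.11 and 10.9 CPM in knockouts (0.21, and -0.18 without knockout heart 3). Ndufaf6 was at 11.6, 9.95 and 12.7 CPM in controls, then 8.47, 9.68 and 15.7 CPM in knockouts (-0.01, and -0.33 without knockout heart 3).

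Ndufa4, first described in complex I and now assigned to cytochrome c oxidase, had more reads than any nuclear subunit. It was at 1159, 1040.0 and 1586 CPM in control and 632, 1345 and 2393 CPM in knockout hearts. The lowest and the highest heart were both knockouts (log2 fold change 0.21, interval -0.78 to 1.19, and -0.35 without knockout heart 3). Its paralogue Ndufa4l2, known as a hypoxia-induced gene, was at 5.97, 3.50 and 5.49 CPM in controls, then 5.83, 4.46 and 6.93 CPM in knockouts (0.20, interval -0.42 to 0.82).

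The nuclear subunits moved together from heart to heart, and this spread was wider than the difference between groups. Of the 37 subunits 29 were highest in knockout heart 3, beside 33.9% of all genes. The lowest heart was control heart 2 for 16 subunits, beside 25.2% of all genes, and knockout heart 1 for 20, beside 15.4%. The remaining subunit was Ndufb7. Within the control group, heart 3 exceeded heart 2 for 34 subunits and heart 1 exceeded heart 2 for 35. Within the knockout group, heart 2 exceeded heart 1 for all 37 subunits and heart 3 exceeded heart 1 for 36. The mean deviation of the subunits from their 6-heart means, on the log2 scale, was 0.003, -0.30 and 0.11 in controls 1, 2 and 3 and -0.32, 0.09 and 0.41 in knockout hearts 1, 2 and 3. As group means this was -0.062 ± 0.216 in control and 0.062 ± 0.362 in knockout hearts (SD, n = 3 each). The SD was larger among knockout than among control hearts for 34 of the 37 subunits.

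**Figure D3:**
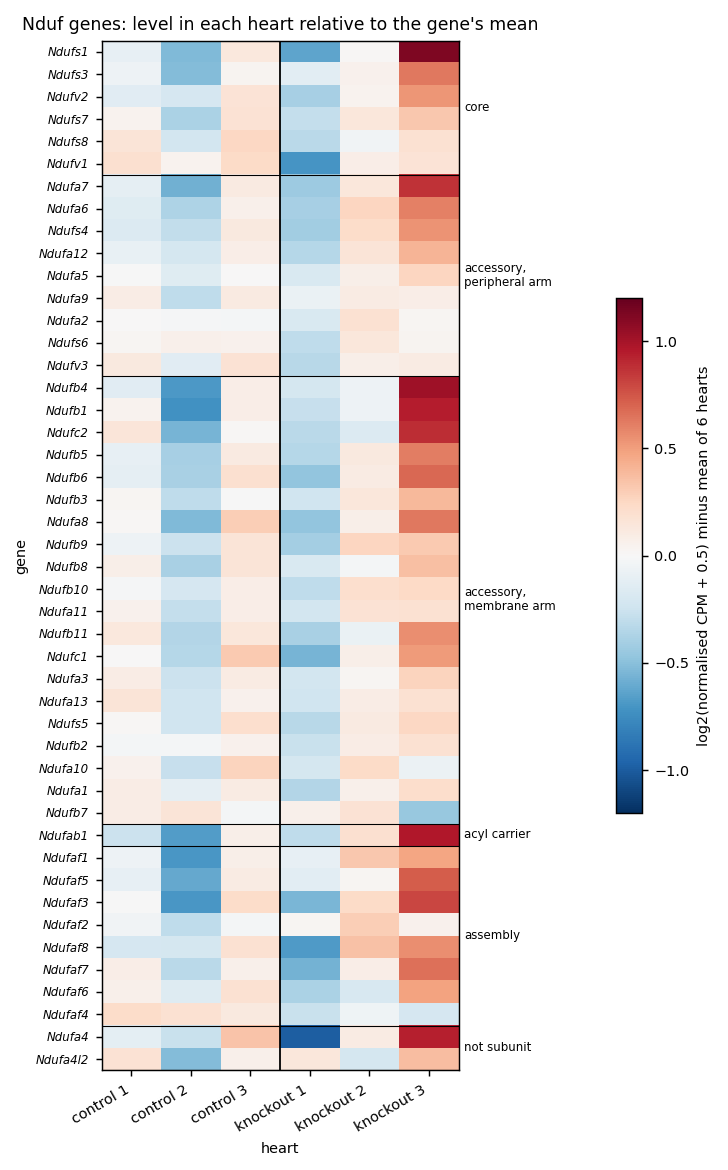
Level of each of 46 Nduf genes (rows, grouped by role) in each heart (columns), as log2(normalised CPM + 0.5) minus the gene's mean over the 6 hearts, with red above and blue below that mean. The columns of control heart 2 and knockout heart 1 are mostly blue and that of knockout heart 3 mostly red, with Ndufb7 and Ndufaf4 among the exceptions in the last.

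As a share of all counts, which uses no scaling factor, the nuclear subunits made up 0.986%, 0.664% and 1.08% in controls 1, 2 and 3 and 0.867%, 0.942% and 1.48% in knockout hearts 1, 2 and 3. The Wilson 95% intervals of these shares, which cover counting error only, were narrow, such as 0.659% to 0.668% in control heart 2. The means were 0.911 ± 0.220% and 1.095 ± 0.332% (SD, n = 3 each), so that the groups overlapped widely.

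The 7 core subunits encoded in mitochondrial DNA all had a log2 fold change below 0, beside 48.9% of all genes, with a median of -0.33 and with 0 past the threshold. Without knockout heart 3 all 7 were still below 0, with a median of -0.22. Control heart 2 was the highest heart for all 7, and their fold changes without it are not given here. Their mean deviation was 0.02, 0.66 and -0.01 in controls 1, 2 and 3 and -0.40, 0.29 and -0.56 in the knockouts. All but mt-Nd6 are cut from a shared precursor, so they do not count as independent observations. mt-Nd1, which forms part of the ubiquinone site, was at 39290, 55880 and 36570 CPM in control and 31450, 45620 and 31650 CPM in knockout hearts. Control heart 2 was the highest and both other controls lay within the knockout range (log2 fold change -0.28, interval -1.005 to 0.45). mt-Nd2, mt-Nd4 and mt-Nd5 encode the antiporter-like pump subunits. mt-Nd4 was at 30160, 39460 and 27320 CPM in controls, then 19610, 38770 and 27540 CPM in knockouts (-0.17, interval -0.95 to 0.60). The values were -0.38 for mt-Nd2, -0.28 for mt-Nd5, -0.33 for mt-Nd3 and -0.40 for mt-Nd4l. mt-Nd6, the one subunit encoded on the other strand of mitochondrial DNA, was at 28.15, 109.1 and 54.2 CPM in control and 30.6, 47.1 and 9.31 CPM in knockout hearts. Its highest and lowest hearts were further apart, relative to its level, than those of the other mt-Nd genes (log2 fold change -1.14, interval -2.51 to 0.24, edgeR adjusted p = 0.694). Reads of mitochondrial genes can be shared with copies in the nuclear genome and are uncertain to that extent. The protocol names no step that marks strand, so reads of mt-Nd6 cannot be told from reads of the opposite strand.

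Mitochondrial and nuclear reads of complex I did not keep a fixed ratio. The mt-Nd genes gave 9.28, 15.4 and 8.05 counts for each count of a nuclear subunit in controls 1, 2 and 3, and 8.575, 10.45 and 6.05 in knockout hearts 1, 2 and 3. Control heart 2, with the lowest share of nuclear subunits, had the highest ratio, and knockout heart 3, with the highest share, had the lowest. The ratio spanned 2.55-fold over the hearts. The group means were 10.9 ± 3.94 in control and 8.36 ± 2.21 in knockout hearts (SD, n = 3 each), a difference smaller than the control SD. In knockout heart 1 both sets lay below their 6-heart means, at -0.32 and -0.40.

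**Figure D4:**
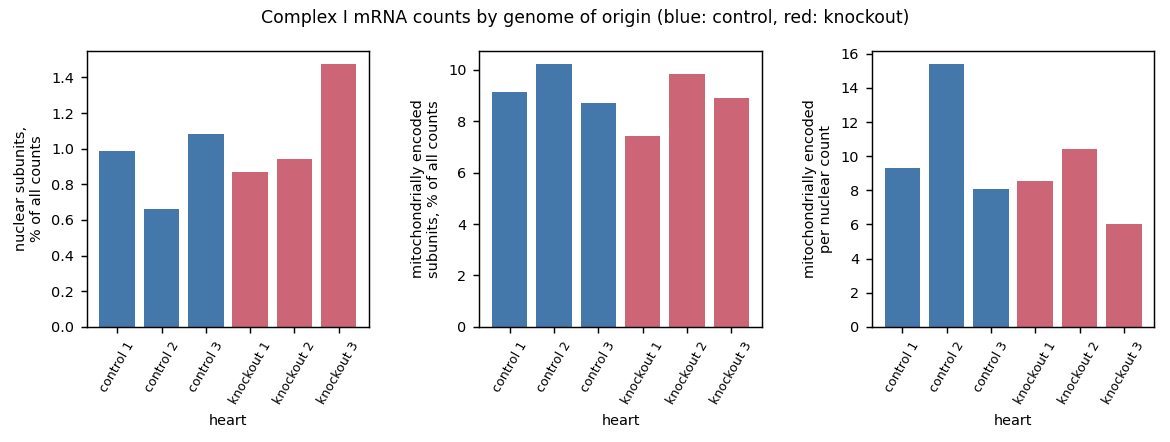
Bars give, for each heart (horizontal axes), the share of all counts in nuclear complex I subunits (left, 0.664% to 1.48%), the share in the 7 mitochondrially encoded subunits (middle) and the ratio of the latter to the former (right, 6.05 to 15.4). Blue bars are control and red bars knockout hearts, and the groups overlap in each panel.

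Set against their own sum, 7 subunits had shares of complex I reads that did not overlap between the groups, a view that is independent of how libraries are scaled. Per 1000 counts of nuclear subunits, Ndufv1 had 25.5, 27.2 and 24.6 in the controls and 16.8, 22.0 and 19.6 in knockout hearts. Every knockout heart lay below every control. Ndufs8 had 14.15, 13.0 and 14.2 in control and 12.5, 11.55 and 11.4 in knockout hearts, and Ndufv3, a small subunit next to the flavin, had 31.9, 31.7 and 31.2 and then 28.9, 28.9 and 24.8. Ndufa1, an X-linked membrane-arm subunit, was the fourth with all knockout hearts below the controls. On this scale 3.46% of all genes had all knockout hearts below and 5.87% all above. The scale takes out the movement from heart to heart that the subunits share, which other genes need not share. The percentages over all genes on it are therefore not a like measure for the subunits. Shares of 1 sum also depend on each other, so a rise in 1 subunit lowers the shares of the others. Ndufs3 had 8.51, 7.31 and 8.54 in control and 10.02, 8.595 and 10.9 in knockout hearts, with little room between the groups. Ndufab1 had 24.2, 21.5 and 28.5 in control and 29.0, 31.0 and 44.5 in knockout hearts, and Ndufb3 was the third. With the libraries scaled to the summed subunit counts, edgeR gave 0 subunits an unadjusted p below 0.05, beside 2.68% of all genes, with log2 fold changes of -0.40 for Ndufv1 and 0.49 for Ndufab1 (adjusted p = 0.941 for both). This scale was chosen after the data were seen, as were the genes it led to, except those named by role or fold change.

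Of 11 further assembly factors whose names do not begin with Nduf, 10 were in the table under these names. Of these 8 lay above 0, with a median of 0.24, or 0.15 without knockout heart 3, and 0 passed the adjusted threshold. Dmac1, which helps to assemble the distal membrane arm, was at 9.92, 7.37 and 11.9 CPM in control and 10.4, 15.4 and 19.7 CPM in knockout hearts. The groups overlapped in knockout heart 1 (log2 fold change 0.64, SE 0.28, edgeR adjusted p = 0.694, unadjusted below 0.05). Among 11 regulators of nuclear genes for mitochondrial proteins, 6 lay above and 5 below 0, with a median of 0.03. Tfam, the factor that packages and transcribes mitochondrial DNA, was at 6.53, 5.895 and 6.68 CPM in control and 8.54, 8.02 and 14.9 CPM in knockout hearts. All knockout hearts lay above the controls (log2 fold change 0.72, SE 0.27, edgeR adjusted p = 0.694, unadjusted below 0.05). Ppargc1b, a coactivator of mitochondrial genes, was at 55.0, 41.8 and 39.3 CPM in controls, then 38.1, 34.8 and 28.2 CPM in knockouts. All its knockout hearts lay below the controls (log2 fold change -0.43, SE 0.21, edgeR adjusted p = 0.694). Ppargc1b was named after its values were seen, and by share of all counts, without TMM factors, its knockout heart 1 lay above control heart 2. Tfam and Ppargc1b were the 2 of 11 regulators whose groups did not overlap in normalised CPM, beside 12.1% of all genes.

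The nuclear subunits of the other complexes were likewise highest on average in knockout heart 3 and lowest in control heart 2 or knockout heart 1. Their mean deviation in knockout heart 3 was 1.04 for complex II (4 genes), 0.48 for complex III (9), 0.68 for complex IV (16) and 0.60 for complex V (19), against 0.41 for complex I. In control heart 2 it was -0.65, -0.30, -0.40 and -0.34, against -0.30. The median log2 fold changes were 0.59, 0.16, 0.24 and 0.145 with all hearts, and -0.004, -0.05, -0.14 and -0.11 without knockout heart 3. The cytosolic ribosomal proteins, another set of short and abundant mRNAs, had a median of 0.22 (58 genes) and 0.05 without that heart. Cox6a1 of complex IV (log2 fold change 0.76) and the ribosomal protein gene Rps4l (0.65) had an unadjusted p below 0.05, with an edgeR adjusted p of 0.694 each.

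**Figure D5:**
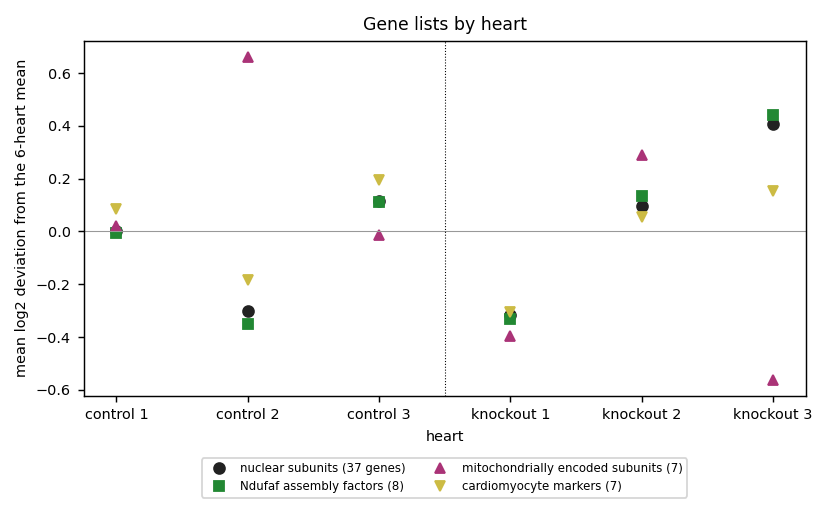
Mean deviation from the 6-heart mean of log2(normalised CPM + 0.5) (vertical axis) in each heart (horizontal axis) for the 37 nuclear subunits, 8 assembly factors, 7 mitochondrially encoded subunits and 7 cardiomyocyte markers. The nuclear lists are lowest in control heart 2 and knockout heart 1, and the mitochondrially encoded list is highest in control heart 2.

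Transcript length and cell markers were set beside these values. The longest protein-coding transcript (GENCODE M21) had a median of 977 bases over 36 subunits and 3236 bases over 11520 genes. Of the 36 subunits 31 were no longer than 1805 bases, as were 2308 of all genes. In knockout heart 3 the median of those 2308 genes stood 0.28 above its 6-heart mean on the log2 scale, and the median of those 31 subunits stood 0.31 above. Across the 11520 genes, which share the library, Spearman's rho between length and the deviation in knockout heart 3 was -0.304, and across the 36 subunits it was 0.02. The 7 cardiomyocyte markers were all detected. Their summed level was 18730 to 22540 CPM in control and 16030 to 21200 CPM in knockout hearts, with 0 of 7 at 0 counts. Of the 7, 3 had fold changes above 0, with a median of -0.21. Their mean deviation was 0.086, -0.18 and 0.19 in control hearts and -0.31, 0.057 and 0.15 in the knockouts. They were lowest in the hearts lowest in subunits, but in knockout heart 3, where the subunits were highest, they lay below control heart 3. All 6 fibroblast, 5 macrophage and 5 erythroid markers had fold changes above 0 (medians 0.35, 0.41 and 0.37), with summed levels of 602 to 702 and 714 to 884 CPM, 46.1 to 59.0 and 64.4 to 70.7 CPM, and 3033 to 4702 and 3552 to 6829 CPM in control and knockout hearts. The erythroid mean deviation was 0.82, -0.28 and -0.12 in knockout hearts 1, 2 and 3. For fibroblast markers knockout heart 2 (-0.16) lay below control hearts 1 and 3 (0.004 and -0.07). For macrophage markers all knockout hearts (0.096, 0.078 and 0.38) lay above the controls. Of the 5 endothelial markers 3 lay above 0 (median 0.002), and of the 5 of smooth muscle and pericytes 1 did (median -0.15). By mean deviation both these lists were highest in knockout heart 1 and lowest in knockout heart 3. The endothelial markers summed to 1036 to 1431 and 788 to 1729 CPM, and those of smooth muscle and pericytes to 506 to 628 and 403 to 689.5 CPM. Adipocyte markers summed to at most 3.21 and skeletal muscle markers to at most 1.36 CPM in any heart. The part of cell makeup and of library composition in the results was not tested.

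Counting leaves some of these genes uncertain. The authors' counts held fractions of a read in at least 1 library for 28 of the 37 subunits, as when reads are shared between genes. Ndufs5-ps, listed as a processed pseudogene, held 51.7% as many counts as Ndufs5. Ndufb4b and Ndufb4c held 20.9% and 20.1% as many as Ndufb4, Ndufa12-ps 3.49% as many as Ndufa12 and Ndufab1-ps 1.89% as many as Ndufab1. Summed with these copies the log2 fold changes were 0.03 for Ndufs5, 0.62 for Ndufb4, 0.18 for Ndufa12 and 0.64 for Ndufab1, against 0.02, 0.57, 0.18 and 0.64 alone. In GENCODE M21 the exons of 20 members overlapped those of another gene. The protocol in the labels names no step that marks strand, so reads cannot be told apart where exons overlap on opposite strands. This applies to Ndufs1 with Eef1b2, Ndufs3 with Kbtbd4, Ndufaf2 with B230220B15Rik and Ndufaf3 with Impdh2. It also applies to Ndufab1 with Gm44986, Ndufs6 with Mrpl36 and Ndufa4l2 with Shmt2.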

How the data were processed

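RNA of 6 hearts was reverse-transcribed from the poly(A) tail, tagmented and amplified, per the labels' protocols. The submitters' processing notes name mm39, Subread 2.1.1 with featureCounts, STAR 2.7.11, edgeR 4.0.16 and SAMtools 1.22.1, but not their settings. The sources used here do not give the annotation release, multi-mapping or strand settings. The deposited table holds estimated counts, not all whole, and CPM, which equalled each authors' count over its column total times 1000000. Counts were rounded and tested with edgeR 4.0.16 in R 4.3.3 (TMM, glmQLFit, group as the only term). Genes needed CPM of at least 1 in at least 3 libraries. Standard errors came from the F statistic. Every pair of libraries differed by more than counting noise. The procedure was tested on simulated data. Alternatives used DESeq2 1.42.0 and limma 3.58.1 (log2(CPM + 0.5), on deposited CPM without TMM factors). Shares of counts have Wilson 95% intervals, which cover counting error only.

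The members and lists were chosen with earlier results of these data known. Genes were named by rule, except 1 that is not reported here by itself: core subunits, Ndufaf genes, Ndufa4, Ndufa4l2, mt-Nd genes, members with unadjusted p under 0.05, the 2 subunits with most and the 2 with fewest control reads, the 3 subunits with the highest and the 3 with the lowest fold change, and of other pathway lists those with unadjusted p under 0.05. Ndufs4, Ndufa7, Ndufv3, Ndufa1, Ndufb3 and Ppargc1b are outside this rule and were chosen after their values were seen. Promoter sequences are RefSeq's, build GRCm38.p6. Lengths and overlaps come from GENCODE M21, and no coordinate was carried between builds.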

Additional observations from a re-analysis of the deposited data

How the results depend on the processing

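The subunit median stayed within 1 SD between hearts (0.298) of its value of 0.11 in all 15 alternatives, 2 of them chosen after seeing the data. That SD is larger than the median, so a change of sign also counts as staying within it. In each alternative 0 subunits were called. Leaving out 1 library moved it between -0.01 and 0.28, and the assembly median between -0.01 and 0.50. Without both control library 2 and knockout library 3, 4 of 37 subunits lay above 0, the subunit median was -0.13 and the assembly median -0.16. The assembly median had thus moved from 0.24 by more than its own SD between hearts (0.324). Over all genes, DESeq2 called 15, edgeR without a filter 133 and edgeR with 1 left-out library 0 to 1, and 1 without both libraries. The labels do not say whether heart numbers pair the samples. Same-numbered hearts deviated with correlations of -0.113, 0.445 and 0.583. A block for heart number in edgeR called 5 genes, 0 of them members, with a subunit median of 0.11. With that block edgeR put 1 subunit, Ndufab1, at unadjusted p below 0.05 (0.0343), beside 13.2% of all genes (5.14% without the block). Control hearts 1 and 2 deviated most like knockout hearts of another number. Knockout hearts 2 and 3 deviated most like the control heart of the same number, and knockout heart 1 most like control heart 2. These values do not settle the pairing. By total counts, limma-trend with 0.5 and limma-trend with 2, the sign turned for Ndufaf6 (0.16, 0.095 and 0.088; 0.0135 without a filter), Ndufs8 (0.023, 0.035 and 0.0345), Ndufs6 (0.071, 0.067 and 0.0665) and Ndufb7 (0.019, 0.014 and 0.014). The fits by total counts and by limma-trend share a scaling without TMM factors. Scaled to subunit counts the sign turned for Ndufs5 (-0.083) and Ndufa5 (-0.0001). Without 1 library the sign turned in 13 of the 23 members named by rule, with ranges of -0.045 to 0.26 for Ndufs7, -0.0068 to 0.34 for Ndufa4l2, -0.10 to 0.17 for Ndufs5, -0.33 to 0.15 for Ndufaf6, -0.19 to 0.0325 for Ndufs6, -0.0099 to 0.68 for Ndufaf3, -0.18 to 0.48 for Ndufaf7, -0.0093 to 0.53 for Ndufaf8, -0.13 to 0.81 for Ndufs1, -0.11 to 0.36 for Ndufv2, -0.35 to 0.56 for Ndufa4, -0.0039 to 0.21 for Ndufa5 and -0.26 to 0.045 for Ndufb7. The cause was not tested.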
